A study of Mus musculus with 12 samples.

Results

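Hepatocytes isolated from the liver were compared with the whole liver of the same animals in JNKΔhepa mice, whose hepatocytes lack the stress-activated kinases JNK1 and JNK2. All arrays labelled as hepatocytes (3) or liver (3) of JNKΔhepa mice were taken, 6 of the 12 arrays in the series, and a mouse number in the labels ties each hepatocyte array to the liver array of the same replicate. The mice were C57BL/6 males aged 7 to 8 weeks on standard chow. They carry a floxed Jnk1 (Mapk8), cut by a Cre under the albumin promoter and alpha-fetoprotein enhancer, and a germline deletion of Jnk2 (Mapk9). Jnk1 is thus deleted only in cells that express the Cre or descend from such cells, while liver cells of these mice that the Cre does not reach lack JNK2 alone. The remaining 6 arrays are the same tissues of 3 WT littermates with floxed Jnk1, intact Jnk2 and no Cre named in their label, and they serve only to ask whether a difference between the tissues depends on the genotype. The labels do not say how the hepatocytes were isolated, or whether they were cultured.

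JNK is a mitogen-activated protein kinase that responds to stress and cytokines and phosphorylates c-Jun, a subunit of the transcription factor AP-1. Immediate early genes, among them Jun, Fos and Egr1, are transcribed shortly after many stimuli without new protein synthesis. Whole liver holds hepatocytes together with sinusoidal endothelial cells, Kupffer cells, stellate cells, bile duct cells and blood cells, and hepatocytes themselves differ along the lobule, from the portal field to the central vein.

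Values are log2 signals after quantile normalisation of the 6 arrays together, and differences are hepatocytes minus liver on that scale. A gene passed at a limma adjusted p under 0.05, with the mouse as a block. Of 18820 genes tested, 156 passed and were at least 2-fold higher in hepatocytes (0.829%) and 764 passed and were at least 2-fold lower (4.06%). Without regard to size, 2446 genes were higher (13%) and 2742 lower (14.6%), 5188 in all (27.6%). These larger counts fell to 2973, 2980 and 3083 when replicate 1, 2 or 3 was left out, while the counts of at least 2-fold changes stayed between 163 and 177 for higher and between 753 and 778 for lower genes. The median difference over all genes was 0.01. Counts of list members given below are to be read beside the 13% higher and 14.6% lower of all genes. The arrays of the tissues did not overlap for 47.2% of all genes in either direction. The split depends on the scaling: 47.1% of the genes that passed were higher here, 0.891% on the deposited values, which shift the median of all genes by −0.61, 82.4% with arrays centred on their medians, 68% with the upper quartile and 40.4% with cyclic loess. The labels name no batch, and tissue and any batch cannot be told apart. Arrays of liver correlated with each other at r = 0.992 to 0.993 across probe sets, arrays of hepatocytes at 0.986 to 0.990, and arrays of different tissues at 0.974 to 0.976.

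The targeted genes were read first. Mapk9, which encodes JNK2, was at 2.96, 2.91 and 2.58 in hepatocytes and at 2.57, 2.11 and 2.70 in liver of mice 1, 2 and 3, below the median of all probe sets (3.67) on all 6 arrays. With all 12 arrays on one scale, the WT arrays of both tissues read 8.06 to 8.40. Mapk8, which encodes JNK1, was at 5.36, 5.41 and 5.39 in hepatocytes and at 5.55, 5.53 and 5.70 in liver, and the tissues differed by −0.21 (95% interval −0.42 to 0.01, limma adjusted p = 0.132). On the 12-array scale, Mapk8 read 5.35 to 5.39 in JNKΔhepa hepatocytes and 5.89 to 6.00 in WT hepatocytes. Which part of the transcript its probes cover is not given in the sources used here, so its level is no check of the deletion. Of the 22 measured genes of the JNK cascade (the kinases above JNK, its scaffolds and its phosphatases), 3 passed as higher (13.6%) and 1 as lower (4.5%). These shares stand against 13% and 14.6% of all genes, and the median was 0.02. The members that passed as higher, the MAP kinase kinase kinases Map3k13 (0.67) and Map3k4 (0.47) and the scaffold gene Mapk8ip3 (0.44), turned negative on the deposited scale, and Map3k3 was lower by −0.38. Map3k4 did not pass without replicate 1 or 2 (adjusted p = 0.069 and 0.071), Mapk8ip3 not without replicate 2 or 3 (0.18 and 0.15), and Map3k3 not when any replicate was left out (0.091, 0.13 and 0.060).

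With the arrays normalised together, plasma protein genes had similar signal in both tissues, and endothelial, Kupffer and stellate cell genes had less in hepatocytes. Genes of secreted plasma proteins, made by hepatocytes, had a median difference of −0.01 over 29 genes, and 1 of them, the fibrinogen chain gene Fga (1.02, SE 0.11, adjusted p = 0.00159), passed. Their summed linear signal was 107400, 108100 and 110400 on the hepatocyte arrays of mice 1, 2 and 3 and 107600, 108700 and 105800 on the liver arrays. The level of this list depends on the scaling. With arrays centred on their medians 28 of the 29 genes were higher (median 0.71) and with the upper quartile 27, while on the deposited values 12 were lower and 1 higher. The median of this list was on the other side of the median of all genes under the other 4 scalings tried and without replicate 1.

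Endothelial markers, not all of them particular to sinusoids, were lower in hepatocytes for 27 of 28 genes, 23 of them at least 2-fold, with a median of −1.42. Lyve1, a hyaluronan receptor of sinusoidal and lymphatic endothelium, was at 5.92, 5.77 and 5.63 in hepatocytes and at 7.87, 7.55 and 8.12 in liver. It fell by 2.07 on the log2 scale (4.21-fold, SE 0.15, adjusted p = 0.000314). Vwf, which encodes von Willebrand factor, was at 2.94, 2.98 and 3.08 against 4.91, 4.996 and 5.001, at least 3.92-fold lower (adjusted p = 0.000156). A fold is given as at least a value where an array of the dimmer tissue read below the median of all probe sets, since the table has no detection calls. Rspo3, a secreted amplifier of Wnt signalling, was also lower (−1.80, at least 3.48-fold), whereas Wnt2 had a difference of −0.57 and did not pass. The tissues did not overlap for Lyve1, Vwf and Rspo3. For Clec4g the decrease holds only for the brighter of its probe sets, since the dimmer gave 0.26.

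Kupffer cell and macrophage markers were lower for 20 of 21 genes, 18 of them at least 2-fold, with a median of −1.68. The complement gene C1qb was at 7.36, 7.28 and 6.67 in hepatocytes and at 9.47, 9.24 and 9.20 in liver (4.59-fold lower, SE 0.13, adjusted p = 0.000188). Vsig4, a complement receptor of Kupffer cells, was at 7.53, 7.17 and 6.76 against 9.45, 9.23 and 9.30 (4.51-fold lower, adjusted p = 0.000210). All hepatocyte arrays lay below all liver arrays for both genes. C1qc fell by 2.16 on the log2 scale, and Clec4f, a lectin found on mouse Kupffer cells, by 1.82. Mpeg1 did not pass (−0.16).

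Stellate cell markers showed the lowest median of these 3 resident cell types, −1.85, with all 22 genes lower and 19 at least 2-fold. Pdgfrb, the PDGF receptor of stellate cells and pericytes, was at 3.88, 3.51 and 3.45 in hepatocytes and at 6.88, 6.67 and 6.31 in liver. It was at least 8.05-fold lower (SE 0.10 on the log2 scale, adjusted p = 0.000156). The collagen-binding proteoglycan gene Dcn fell by 2.48 and Col14a1, a fibril-associated collagen, by 2.34, each without overlap between the tissues.

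Genes of MHC class II antigen presentation, used by macrophages, dendritic cells and B cells, fell most among the lists. All 6 measured members were lower, 5 of them at least 2-fold, with a median of −2.46. H2-Aa was at 5.15, 4.77 and 4.38 in hepatocytes and at 7.67, 7.52 and 7.30 in liver, 6.64-fold lower (SE 0.11, adjusted p = 0.000156). H2-Eb1 fell by 2.56, H2-Ab1 by 2.49 and the invariant chain gene Cd74 by 2.43. The peptide-loading gene H2-DMa fell by 1.06, and the class II transactivator Ciita by 0.64 with readings below the median of all probe sets on all 6 arrays.

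Among lymphocyte and NK cell markers, 11 of 17 genes were lower and none higher, with a median of −0.64. The B cell genes Cd79b (at least 3.26-fold lower) and Ms4a1 and the cytotoxic cell gene Nkg7 (at least 3.09-fold lower) passed. Immunoglobulin kappa segments were among the largest decreases of all genes, and Igkv10-96 was at least 7.12-fold lower. Near-identical kappa segments can share array probes, so these values may not belong to a single segment. Neutrophil and monocyte markers were lower for 6 of 12 genes (median −0.35), but all 12 read below the median of all probe sets on every hepatocyte array, and the size of these differences is not exact. Of 14 cholangiocyte markers 6 were lower and 2 higher (median −0.30), and 10 read below the median on all hepatocyte arrays. Of the 5 that passed a filter on dim probe sets, 1 was lower and 2 higher. Bicc1 was at least 3.06-fold lower by its brighter probe set (the dimmer gave −0.06), Krt19 (−1.28) and Epcam (−1.08) passed at readings close to or below the median, and Sox9 was higher (0.76; 0.01 and adjusted p = 0.95 on the deposited scale).

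The markers were reduced and not removed. The summed linear signal of the endothelial list was 3367, 2525 and 2449 on the hepatocyte arrays of mice 1, 2 and 3 against 7733, 7032 and 7410 on the liver arrays. The Kupffer list summed to 1817, 1588 and 1440 against 5386, 4754 and 4818, and the stellate list to 939.1, 682.0 and 699.4 against 3436, 3337 and 3112. In each of these lists the hepatocyte array of mouse 1 was the highest of its tissue, and it also had the largest median deviation from its group mean (0.0913, the other 5 arrays 0.061 to 0.079). Without replicate 1, 28 endothelial, 19 Kupffer and 22 stellate genes passed as lower. In bulk samples such as these, fewer cells of a type and less RNA per cell cannot be told apart.

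**Figure D1:**
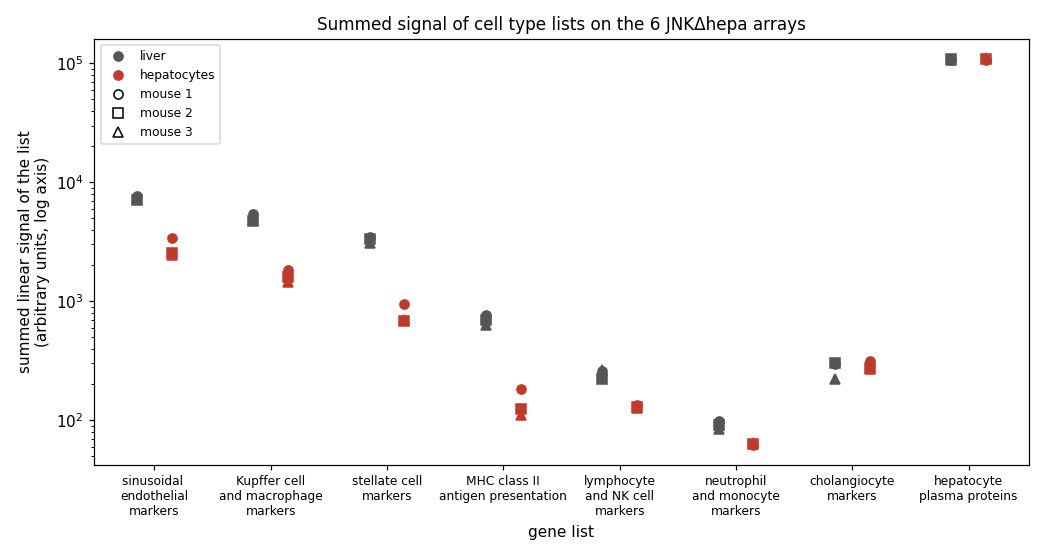
Summed linear signal (arbitrary units, log axis) of 8 gene lists on each of the 6 JNKΔhepa arrays, liver in grey and hepatocytes in red, with a symbol for each mouse. The endothelial, Kupffer, stellate and MHC class II lists are lower on every hepatocyte array than on every liver array, with mouse 1 the highest hepatocyte array. The plasma protein list lies between 105800 and 110400 on all arrays, after the quantile normalisation that gives the 6 arrays the same distribution. Its level depends on the scaling, and with arrays centred on their medians 28 of its 29 genes were higher in hepatocytes.

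Gene lists that such cells share with hepatocytes held more lower than higher genes, where 14.6% of all genes were lower and 13% higher. Of 35 extracellular matrix and integrin genes, 23 were lower and none higher (median −0.58), with Timp2 (at least 5.42-fold) and Timp3 (−1.89), inhibitors of matrix proteases, and the matrix glycoprotein gene Sparc (−1.66) among those that passed. In the cytoskeleton list 13 of 35 genes were lower and 2, the tubulin genes Tubb2a (0.72) and Tubb2b (0.51), higher; with arrays centred on their medians 11 were lower and 11 higher. Among the lower genes were the mesenchymal intermediate filament gene Vim (−2.12) and the actin-binding thymosin gene Tmsb4x (−2.07). Targets of the YAP/TEAD transcription factors were lower for 7 of 19 genes and higher for none, led by the matricellular growth factor gene Ccn2. Ccn2 was at 4.69, 5.14 and 4.85 in hepatocytes and at 7.05, 7.11 and 7.09 in liver (4.55-fold lower, SE 0.11, adjusted p = 0.000156). Of 33 NF-kB targets, cytokines and chemokines, 11 were lower and 1, the neutrophil chemokine Cxcl1, was higher (1.30, SE 0.22, adjusted p = 0.00813; adjusted p = 0.079 on the deposited scale). Il1b, an inflammatory cytokine gene, was at least 3.39-fold lower. The endothelial, Kupffer and stellate markers moved with all of these lists, and their part in the decreases was not tested.

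Some of the largest decreases of all genes fell outside the lists. Plet1, an epithelial surface protein gene, was at 2.58, 2.18 and 2.14 in hepatocytes and at 6.53, 6.46 and 6.16 in liver, at least 17.0-fold lower (SE 0.10 on the log2 scale, adjusted p = 0.000108). Dpt, which encodes the matrix protein dermatopontin, was at least 11.6-fold lower. Igfbp3, a carrier of insulin-like growth factors, was 7.26-fold lower and the endothelin receptor gene Ednrb at least 6.64-fold. Emp1 was at least 6.49-fold and Wfdc17 6.34-fold lower. The tissues overlapped for none of these genes, but the rule for the largest decreases required that. It held for 47.2% of all genes in either direction. Gpx3, a secreted glutathione peroxidase, was at least 7.73-fold lower, but its liver arrays read 4.96, 4.91 and 8.06 and mouse 3 alone stood high. Without replicate 3 the difference of Gpx3 was −1.91 in place of −2.95 and passed (adjusted p = 0.00165), and with an intensity trend in the variance it did not pass (adjusted p = 0.138).

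**Figure D2:**
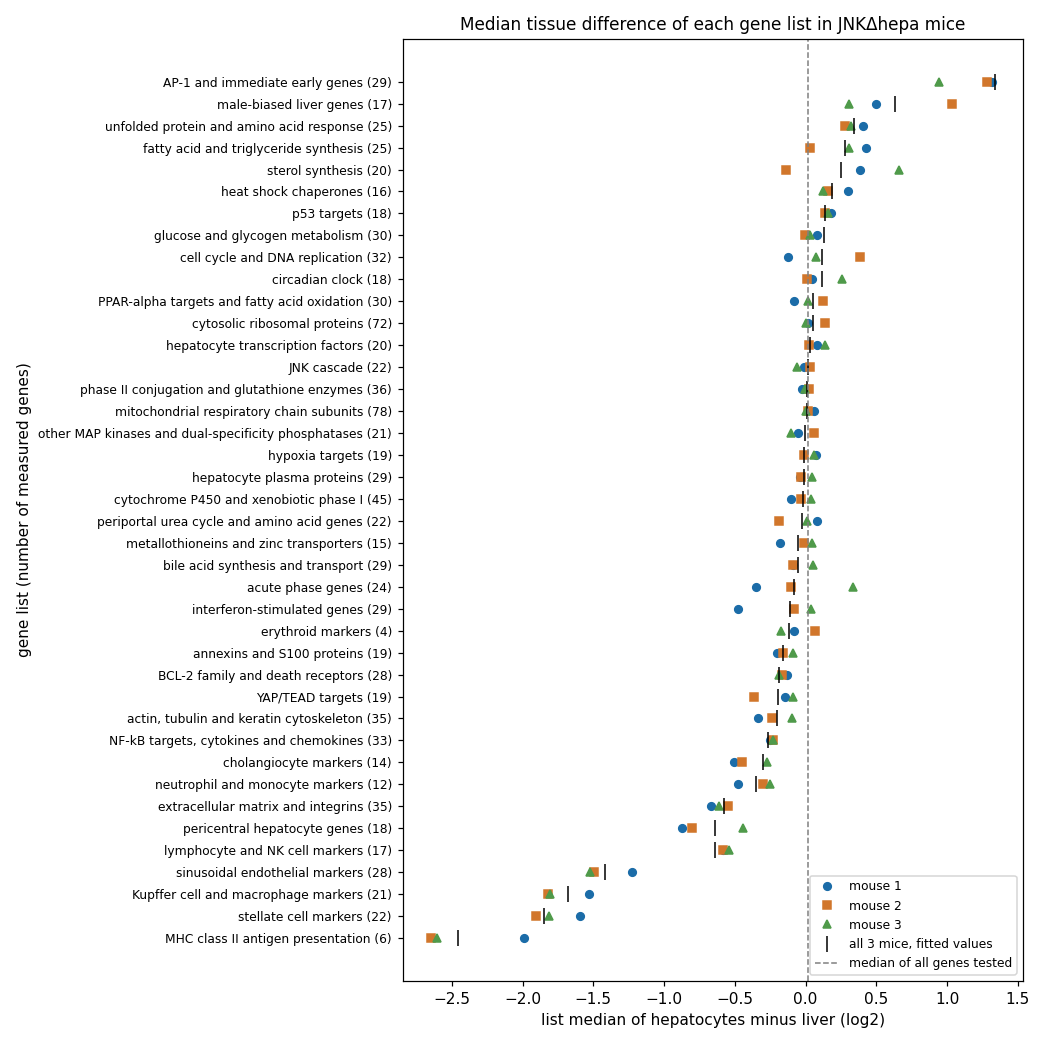
Median difference between hepatocytes and liver (log2, horizontal axis) of the 40 gene lists, for each mouse (coloured symbols) and from the fit over the 3 mice (black bars), with the number of measured genes in brackets. The MHC class II, stellate, Kupffer and endothelial lists lie farthest to the left, from −2.46 to −1.42, and the immediate early list farthest to the right at 1.34, against a median of all genes of 0.01 (dashed line).

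Immediate early genes rose in hepatocytes of mice without JNK in these cells. Of 29 genes measured, 18 were higher, 16 of them at least 2-fold, and 2 were lower, with a median of 1.34. The same list was counted at 17 higher without replicate 1 and 18 without replicate 2 or 3. On the deposited scale, on which the median of all genes fell to −0.60, 15 were higher and 11 lower. The promoters of 3 of the risen genes, the 250 bases before the start site, are printed because each holds the 8-base element TGANNTCA, a form of the sequence bound by AP-1 and ATF/CREB dimers, shown in capitals. They are from RefSeq (GRCm38.p6, minus strand in all 3), at chr4:95052223-95052472 for Jun, chr17:26508473-26508722 for Dusp1 and chr1:134079156-134079405 for Btg2.
Jun: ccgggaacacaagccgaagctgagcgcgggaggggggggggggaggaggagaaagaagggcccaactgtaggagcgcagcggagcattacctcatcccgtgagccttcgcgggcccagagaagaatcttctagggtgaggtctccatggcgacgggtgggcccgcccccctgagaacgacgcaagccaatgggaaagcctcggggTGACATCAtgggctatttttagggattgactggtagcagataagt
Dusp1: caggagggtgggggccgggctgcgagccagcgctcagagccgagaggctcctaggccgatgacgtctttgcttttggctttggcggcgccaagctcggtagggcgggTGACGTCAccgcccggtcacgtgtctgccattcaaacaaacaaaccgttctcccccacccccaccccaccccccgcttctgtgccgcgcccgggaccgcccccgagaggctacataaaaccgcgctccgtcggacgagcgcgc
Btg2: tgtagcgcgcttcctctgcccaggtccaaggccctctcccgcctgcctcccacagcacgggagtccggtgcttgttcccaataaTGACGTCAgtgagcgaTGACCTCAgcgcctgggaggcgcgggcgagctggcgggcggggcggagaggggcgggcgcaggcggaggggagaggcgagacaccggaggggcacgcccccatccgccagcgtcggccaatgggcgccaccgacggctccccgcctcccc

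The element starts 45 bases before the Jun start site, 143 before that of Dusp1, and 166 and 150 before that of Btg2. Searched on both strands, TGANNTCA was in the promoters of 6 of the 24 immediate early genes with a promoter in the table (25%; Btg2, Dusp1, Jun, Jund, Klf6 and Maff) and of 3652 of 27025 genes in all (13.5%). Its full CRE form TGACGTCA, counted within it, was in 3 of 24 (12.5%; Btg2, Dusp1 and Maff) against 1.77% of all genes. The 7-base AP-1 form TGANTCA was in 0 of 24 and in 7.82% of all genes. The matches are a description of these windows, and Klf6, which holds one, was lower in hepatocytes.

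Among the AP-1 subunits, Jun was at 8.25, 7.98 and 8.11 in hepatocytes and at 5.38, 5.34 and 5.47 in liver. It was 6.56-fold higher (SE 0.09 on the log2 scale, adjusted p = 0.000156), and the lowest hepatocyte array lay far above the highest liver array. Fos was at 5.92, 5.13 and 5.05 against 2.46, 2.43 and 2.41, at least 7.61-fold higher (SE 0.17, adjusted p = 0.000188), with the liver readings close to each other and below the median of all probe sets. Junb rose by 1.61, Jund by 0.90 and Fosl2 by 0.95, and the last pair did not pass on the deposited scale (adjusted p = 0.083 and 0.27). Fosb did not pass (0.35, 95% interval 0.06 to 0.64). The AP-1 partners Atf3, an ATF family repressor induced by stress, and Maff, a small Maf protein, rose by at least 3.40-fold and 3.57-fold.

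Other immediate early transcription factors rose as far. Egr1, a zinc finger factor, was at 7.63, 8.17 and 8.41 in hepatocytes and at 4.36, 4.39 and 4.51 in liver, 12.6-fold higher (SE 0.14, adjusted p = 0.000156). Myc, a driver of growth and ribosome production, was at 7.21, 7.78 and 7.89 against 4.96, 4.80 and 5.05, 6.43-fold higher (SE 0.15, adjusted p = 0.000186). Neither gene's tissues overlapped, which the rule for the largest increases required and which held for 47.2% of all genes in either direction. The orphan receptor gene Nr4a1 was at 6.22, 4.71 and 4.68 against 3.20, 3.42 and 3.26, so mouse 1 stood high, and Ier2 rose by 1.64. The list was not uniform: Egr2 (0.10), Egr3 (0.34), Nr4a2 (0.07), Nr4a3 (−0.22), Klf4 (0.33), Ier3 (−0.34), Ier5 (−0.19) and Mafk (−0.11) did not pass. Klf6 fell by 0.81 (adjusted p = 0.00406), and Klf2, a flow-responsive factor of endothelium, by 0.39 (adjusted p = 0.0358). The fall of Klf2 did not pass without replicate 1, 2 or 3 (adjusted p = 0.14, 0.070 and 0.086).

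The list also holds early response genes that restrain growth or signalling. Gadd45g, a stress sensor, was at 9.25, 8.89 and 9.10 in hepatocytes and at 6.12, 5.50 and 6.52 in liver, 8.18-fold higher (SE 0.16, adjusted p = 0.000164). Btg2, an antiproliferative gene, was at 7.12, 7.23 and 7.34 against 4.61, 5.07 and 4.68, 5.43-fold higher (SE 0.12, adjusted p = 0.000156). Both were higher in hepatocytes in all 3 mice, but the rule for the largest increases required the same sign in all mice. That held for 11413 of 18820 genes. Gadd45a rose at least 3.13-fold and Gadd45b by 1.20, the latter not passing without replicate 1 or 2 (adjusted p = 0.095 and 0.072), where liver mouse 3 read 5.79 against 4.60 and 4.44. Dusp1, a phosphatase that inactivates JNK and p38, was at 9.02, 9.56 and 9.59 against 7.70, 8.24 and 7.85 and rose by 1.46. Zfp36, which destabilises inflammatory mRNAs, rose by 1.34 and the salt-inducible kinase gene Sik1 by 1.395 (adjusted p = 0.052 with an intensity trend).

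**Figure D3:**
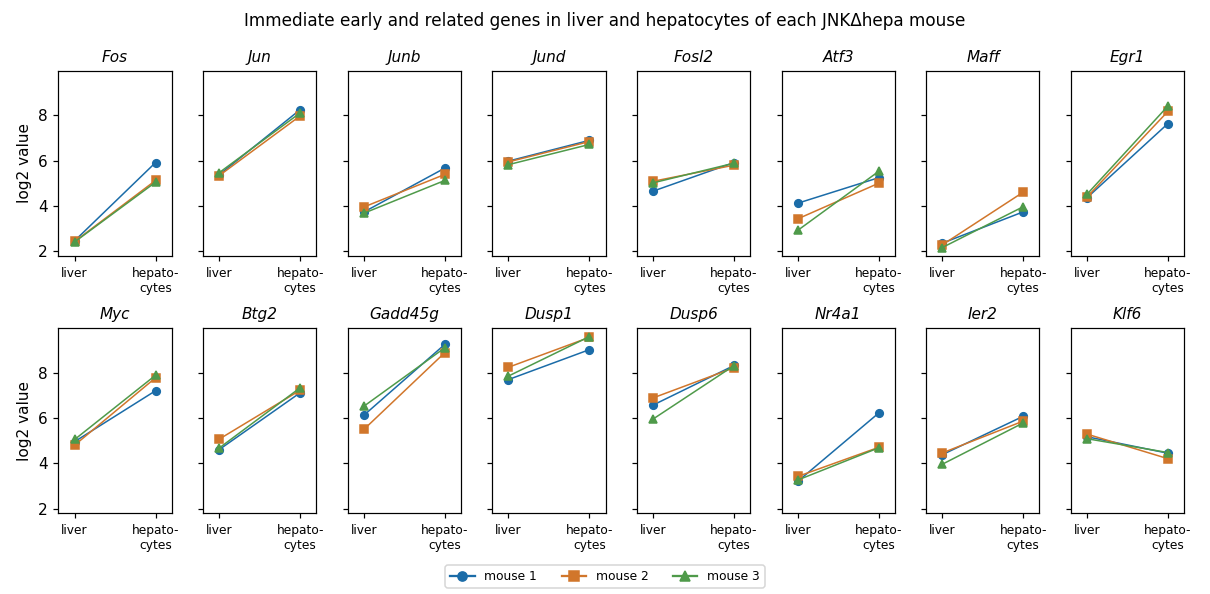
Log2 value in liver and in hepatocytes (horizontal axis) of each JNKΔhepa mouse for 16 immediate early and related genes, each line joining the samples of a mouse. All lines rise except those of Klf6, and for Jun, Fos, Egr1, Myc, Btg2 and Gadd45g each hepatocyte value is above each liver value, while Nr4a1 and Fos are highest in the hepatocytes of mouse 1. The rule for the largest increases, met by Jun, Fos, Egr1, Myc, Btg2 and Gadd45g, required arrays that do not overlap.

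Single genes of related stress and signalling lists rose as well. Dusp6, a phosphatase of ERK, was at 8.32, 8.22 and 8.31 in hepatocytes and at 6.57, 6.89 and 5.96 in liver (3.51-fold higher, SE 0.19, adjusted p = 0.00116), while Mapk11 and Mapk12, genes of 2 p38 kinases, were at least 2.70-fold and 2.07-fold lower. In that list of 21 other MAP kinases and phosphatases, 1 gene was higher (4.8%) and 5 lower (23.8%), against 13% and 14.6% of all genes. Socs3, which shuts off cytokine signalling through STAT3, was at 6.27, 5.98 and 6.28 against 4.59, 4.43 and 4.01 and rose by 1.83. It was the only 1 of 24 acute phase genes to pass as higher. Socs3 has 2 probe sets, and with the dimmer probe set of each gene 0 acute phase genes passed as at least 2-fold higher. Of 18 p53 targets, 6 were higher (33.3%) and 3 lower (16.7%), against 13% and 14.6% of all genes. Without replicate 1 or 3, 4 were higher. Cdkn1a (the cell cycle inhibitor p21) was at 8.87, 10.49 and 10.38 against 7.70, 7.53 and 8.38, 4.13-fold higher, and Plk3 was 3.90-fold higher. The rise of Cdkn1a did not pass with an intensity trend in the variance (adjusted p = 0.059). Plk2 was lower (−0.74) but did not pass without replicate 2 or 3 (adjusted p = 0.12 and 0.13).

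In the unfolded protein and amino acid response, 10 of 25 genes were higher (40%, against 13% of all genes) and none lower. The median was 0.34, and 6 genes were higher without replicate 3. Chac1, a glutathione-degrading target of ATF4, rose by 1.31 and the endoplasmic reticulum gene Sdf2l1 by 1.01. On the deposited scale 2 genes of this list were higher and 9 lower, although its median stayed above that of all genes. Among 16 heat shock chaperones 4 were higher (25%, against 13% of all genes) and none lower. Without replicate 1 or 3, 1 was higher.

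Most genes of a pericentral list, expressed by the hepatocytes around the central vein and dependent on Wnt signalling, were lower in the isolated hepatocytes. Of 18 genes, 14 passed as lower and none as higher, 8 of them at least 2-fold, with a median of −0.64. Without replicate 1 only the 8 genes changed at least 2-fold passed, without replicate 2 there were 10, and without replicate 3 there were 12. The glutamate transporter gene Slc1a2 was at 6.19, 7.04 and 6.80 in hepatocytes and at 9.54, 9.75 and 9.68 in liver, 7.88-fold lower (SE 0.14 on the log2 scale, adjusted p = 0.000156). Glul, which encodes glutamine synthetase, was at 9.62, 9.9996 and 10.03 against 11.46, 11.70 and 11.56, and fell by 1.69 (SE 0.10, adjusted p = 0.000188). For each of these genes every hepatocyte array was below every liver array, which for Slc1a2 the rule for the largest decreases required.

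Lgr5, the receptor for R-spondins, was at 4.26, 4.79 and 4.69 in hepatocytes and at 7.23, 7.20 and 6.76 in liver, 5.59-fold lower (SE 0.17, adjusted p = 0.000277). The ammonium transporter gene Rhbg fell by 1.88, the Wnt feedback inhibitor Nkd1 by 1.33, Lhpp by 1.24, ornithine aminotransferase (Oat) by 1.20 and Cyp7a1, the rate-limiting enzyme of bile acid synthesis, by 1.19. These 8 genes passed in the same direction under every scaling and without any replicate. The Wnt receptor ligase Rnf43 (−0.74), Slc1a4 (−0.54), Ahr (−0.51), Tbx3 (−0.41), Axin2 (−0.39) and Gulo (−0.39) passed in the fit of all mice but not without replicate 1 (adjusted p = 0.052, 0.061, 0.11, 0.14, 0.14 and 0.12). Without replicate 2 the same p was 0.056 for Slc1a4, 0.074 for Ahr, 0.20 for Tbx3 and 0.086 for Gulo, and without replicate 3 it was 0.14 for Axin2 and 0.061 for Gulo. Gulo was higher by 0.09 with arrays centred on their medians. Znrf3 (−0.28), Sp5 (−0.07), Notum (−0.05) and Cyp27a1 (0.03) did not pass.

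Few periportal genes passed with the arrays normalised together. Of 22 genes of the urea cycle, amino acid breakdown and portal identity, 1 passed as higher (Cdh1, 0.40) and 1 as lower (Tdo2, −0.32), with a median of −0.03. With arrays centred on their medians 18 were higher and none lower, with the upper quartile 11 were higher, and on the deposited values 17 were lower, so the direction of this list depends on the scaling. Both calls were lost without replicate 1 (adjusted p = 0.12 and 0.15) and without replicate 3 (0.12 and 0.11), the call of Tdo2 also without replicate 2 (0.11), and Tdo2 turned positive with arrays centred on their medians. Cps1, the entry enzyme of the urea cycle, and Arg1, its last, are among the genes that did not pass.

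**Figure D4:**
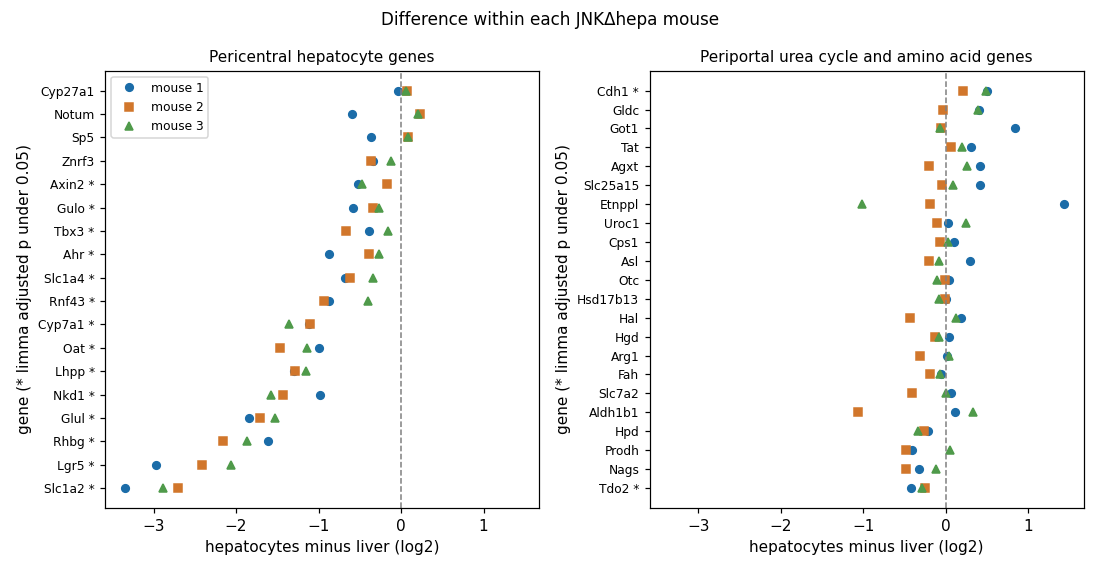
Difference between hepatocytes and liver (log2, horizontal axis) within each JNKΔhepa mouse for 18 pericentral genes (left) and 22 periportal genes (right), with an asterisk where the limma adjusted p is under 0.05. The pericentral genes from Slc1a2 to Cyp7a1 lie below −0.9 in all 3 mice, while most periportal genes scatter around 0.

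Metabolic genes changed singly. Ppp1r3g, a subunit that directs protein phosphatase to glycogen, was at 8.24, 6.16 and 6.23 in hepatocytes and at 2.92, 2.68 and 3.47 in liver, at least 14.4-fold higher (SE 0.43, adjusted p = 0.00166), with mouse 1 highest. Igfbp1, a secreted protein induced in fasting, was at 11.37, 10.97 and 11.12 against 7.53, 7.59 and 9.51, 7.71-fold higher, and did not pass with an intensity trend (adjusted p = 0.072). The insulin receptor substrate gene Irs2 was at 7.63, 7.46 and 7.59 against 4.89, 5.62 and 6.06, 4.11-fold higher (adjusted p = 0.00133). For these genes the hepatocyte arrays were all above the liver arrays, which for Ppp1r3g and Igfbp1 the rule for the largest increases required. Liver varied more than hepatocytes for Igfbp1 and Irs2. In the whole list of 30 glucose and glycogen genes, 5 were higher and 5 lower (16.7% each), against 13% and 14.6% of all genes. The lower genes were 3, 1 and 2 without replicate 1, 2 or 3.

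Among lipid synthesis genes those that passed were higher. Of 25 genes of fatty acid and triglyceride synthesis, 9 were higher and none lower, with a median of 0.28. The median was 0.42, 0.03 and 0.31 in mice 1, 2 and 3, and without replicate 1 it was 0.17, with 6 genes higher (6 also without replicate 3) and 2 in place of 4 at least 2-fold higher. On the deposited scale 6 were higher and 8 lower, although the median stayed above that of all genes. Lpin1, a phosphatidate phosphatase and coactivator, was at 10.36, 10.76 and 10.91 in hepatocytes and at 8.51, 8.96 and 9.11 in liver, 3.51-fold higher (SE 0.08, adjusted p = 0.000156), with a nearly equal step in each mouse. Acly (1.06) and the acetyl-CoA carboxylase gene Acacb (1.02) also rose. Thrsp, a lipogenic regulator, was higher by 1.49 but did not pass without replicate 1 or 3 (adjusted p = 0.12 and 0.11) or with an intensity trend (adjusted p = 0.17).

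Single bile acid genes changed in either direction. Besides Cyp7a1, the organic anion transporter gene Slco1a4 was lower, at 7.40, 7.25 and 7.12 in hepatocytes and at 8.71, 9.32 and 8.98 in liver (3.35-fold, adjusted p = 0.000617). Cyp7b1, an oxysterol hydroxylase of the alternative bile acid pathway, was at 10.24, 9.35 and 9.41 against 7.72, 7.13 and 8.46, 3.72-fold higher (adjusted p = 0.00471). Nr0b2, the nuclear receptor SHP that represses Cyp7a1, was at 8.53, 8.51 and 8.37 against 6.94, 7.33 and 6.27 and rose by 1.62 (adjusted p = 0.00125). In all, 2 of 29 genes in the bile acid list were higher (6.9%) and 5 lower (17.2%), against 13% and 14.6% of all genes. The median of the list was −0.06. Among 20 hepatocyte transcription factors, Onecut1 (HNF6) rose by 1.60, and 6 were higher (30%) and 3 lower (15%). Without replicate 2, 3 were higher, and without replicate 1, 1 was lower.

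Genes that are more highly expressed in male than in female mouse liver lay above 0 for all 17 members, 10 of which passed as higher, with a median of 0.63. The count was 3 without replicate 1, 5 without replicate 2 and 9 without replicate 3, and on the deposited scale 4 were higher and 2 lower. The steroid dehydrogenase gene Hsd3b5 was at 10.79, 9.82 and 9.84 in hepatocytes and at 8.02, 4.19 and 8.21 in liver, so the liver of mouse 2 stood low. Its difference of 3.35 (SE 0.67, adjusted p = 0.0143) was 2.20 without replicate 2 and did not pass without replicate 1 (adjusted p = 0.058) or with an intensity trend (adjusted p = 0.161). Elovl3 was likewise lowest in the liver of mouse 2 (9.93, the others 11.13 and 11.61), and its rise of 0.97 was 0.51 without replicate 2 and did not pass without replicate 1 (adjusted p = 0.093) or without the mouse block (adjusted p = 0.079).

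Of 18 circadian clock genes, 6 were higher (33.3%) and 2 lower (11.1%), against 13% and 14.6% of all genes. Of the higher genes 5 were at least 2-fold higher (3 without replicate 2). Nfil3, a repressor in the clock's output, was at 8.50, 8.34 and 8.33 in hepatocytes and at 6.73, 6.38 and 7.11 in liver, 3.13-fold higher (SE 0.15, adjusted p = 0.000720). The core repressor gene Cry1 rose by 1.14, and both genes passed without any replicate and under every scaling. Arntl (BMAL1, 1.01), its partner Npas2 (1.27) and Bhlhe40 (1.17) did not pass on the deposited scale (adjusted p = 0.077, 0.051 and 0.067), nor did Bhlhe40 without replicate 3 (0.057). Nr1d2 was lower by −0.76 by its brighter probe set only. The labels give no time of day for either tissue, so time of sampling and tissue cannot be told apart here.

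The lists not yet described, among them cytochrome P450 and conjugating enzymes, fatty acid oxidation, sterol synthesis, the cell cycle, the BCL-2 family, hypoxia and interferon targets, ribosomal proteins and the respiratory chain, had medians between −0.19 and 0.25. Single genes in them changed further. The zinc transporter gene Slc39a2 was at 3.53, 4.76 and 4.40 in hepatocytes and at 6.02, 6.38 and 6.60 in liver, at least 4.29-fold lower (SE 0.17, adjusted p = 0.000443), and the annexin gene Anxa1 was at least 3.40-fold lower. Pdk4, which limits glucose oxidation, was 2.60-fold higher (adjusted p = 0.00608) and the cytochrome oxidase subunit gene Cox6b2 2.15-fold higher (adjusted p = 0.000388). These genes passed in the same direction under every scaling and without any replicate. The P450 gene Cyp17a1, at 6.72, 6.23 and 6.14 against 7.48, 9.55 and 8.18, was lower by −2.04, but its fall did not pass without replicate 3 (adjusted p = 0.064) or with an intensity trend (adjusted p = 0.147), and was −1.403 without replicate 2, whose liver read highest.

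Whether these differences depend on the genotype was asked with the WT arrays, in which the same tissues were compared. The genotypes differ in the Cre named in the label, the cut of Jnk1 and the germline deletion of Jnk2. The parts of these in a difference between genotypes cannot be told apart. No gene of 18820 passed limma's test of the JNKΔhepa difference minus the WT difference (0%; lowest adjusted p = 0.156), while 1390 (7.39%) had an unadjusted p under 0.05. Of the 920 genes that passed with at least 2-fold in JNKΔhepa, 907 had the same sign in WT, against 79.6% of all genes. The WT arrays of the tissues did not overlap in that direction for 847 of them, against 39.6% of all genes. Across all genes, the differences in the genotypes correlated at r = 0.860, a description over genes that share arrays and normalisation. A test that passes for no gene does not show that the genotypes respond alike, and the interval of each difference says how far they could differ.

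Jun differed between the tissues by 2.72 in both JNKΔhepa and WT on the 12-array scale (difference between genotypes 0.00, 95% interval −0.51 to 0.50). For Egr1 the values were 3.65 and 3.25 (0.40, interval −0.69 to 1.4955), and for Fos 2.91 and 3.54 (−0.64, interval −1.80 to 0.52), whose liver readings in JNKΔhepa are below the median of all probe sets, so that its sizes are not exact. Myc was at 2.68 in JNKΔhepa and 0.16 in WT (2.52, interval 1.63 to 3.42, unadjusted p = 0.000143), but did not pass over all genes (adjusted p = 0.173). Fosl2 read 0.93 and 0.12 (adjusted p = 0.370). Of the pericentral genes, Slc1a2 read −2.99 and −2.76 (difference −0.23, interval −0.64 to 0.17) and Glul −1.70 and −1.56 (−0.14, interval −0.46 to 0.19).

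Other genes had smaller p-values than Myc in this test. Plet1 read −4.06 in JNKΔhepa and −2.15 in WT (difference −1.91, interval −2.38 to −1.44, adjusted p = 0.156), Cyp2c38, a cytochrome P450, −1.43 and −0.36 (adjusted p = 0.158), and the interferon-induced Ifi44l −0.99 and 0.46 (adjusted p = 0.169). Defb1, a defensin, read −0.57 and 1.27, and Snai2, a zinc finger repressor, −0.46 and 0.51. In the other direction the pseudogene Serpina4-ps1 read 2.52 and −0.69, Scara5 0.99 and −1.46, B3galt1 1.40 and −0.01, Pvt1 0.79 and 0.00, and Anxa9 0.02 and −0.88. Plet1 and Ifi44l had hepatocyte and Pvt1 had liver readings below the median of all probe sets in JNKΔhepa, and Anxa9 read below it in both tissues, so the sizes of these differences are not exact. None of these genes passed, although Plet1 and Ifi44l did on the deposited scale and without the mouse block, and Plet1 and Cyp2c38 did with an intensity trend in the variance.

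Lists of the resident non-parenchymal cells had lower medians in JNKΔhepa than in WT. The endothelial median was −1.42 in JNKΔhepa and −0.94 in WT, the Kupffer median −1.68 and −1.23, the stellate median −1.85 and −1.40, and the MHC class II median −2.46 and −1.44. In this paragraph the JNKΔhepa medians are from the 6 arrays normalised together and the WT medians from all 12. On the 12-array scale these JNKΔhepa medians were −1.41, −1.66, −1.84 and −2.46. The median of the differences between genotypes, gene by gene, was −0.46, −0.45, −0.26 and −0.68. Of these genes 20 of 28, 12 of 21, 6 of 22 and 5 of 6 had an unadjusted p under 0.05 for the difference between genotypes, against 7.39% of all genes, and none passed after adjustment. The immediate early median was 1.34 in JNKΔhepa and 0.81 in WT, and the pericentral median −0.64 and −0.48. Gene by gene, the median difference between genotypes was 0.09 for the immediate early and −0.07 for the pericentral list. Lymphocyte markers had medians of −0.64 in JNKΔhepa and −1.05 in WT, with a median difference of 0.13 gene by gene. For male-biased genes the medians were 0.63 and 0.11, with a median difference of 0.53. An unadjusted p under 0.05 in limma's genotype test was also found for 7 of 17 lymphocyte, 7 of 29 immediate early and 8 of 17 male-biased genes. It was found for 0 of 18 pericentral genes, and none of these genes passed after adjustment. The part of the endothelial, Kupffer, stellate, MHC class II and lymphocyte markers in the other differences between genotypes was not tested.

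The cytokine signalling inhibitor gene Socs2 was at 9.78, 9.23 and 9.24 in hepatocytes of JNKΔhepa mice and at 7.61, 7.14 and 9.24 in liver, so the tissues of mouse 3 read alike and the tissues overlap. Its difference of 1.42 (SE 0.41, limma adjusted p = 0.0450) did not pass without replicate 1 (0.204) or 2 (0.161).

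**Figure D5:**
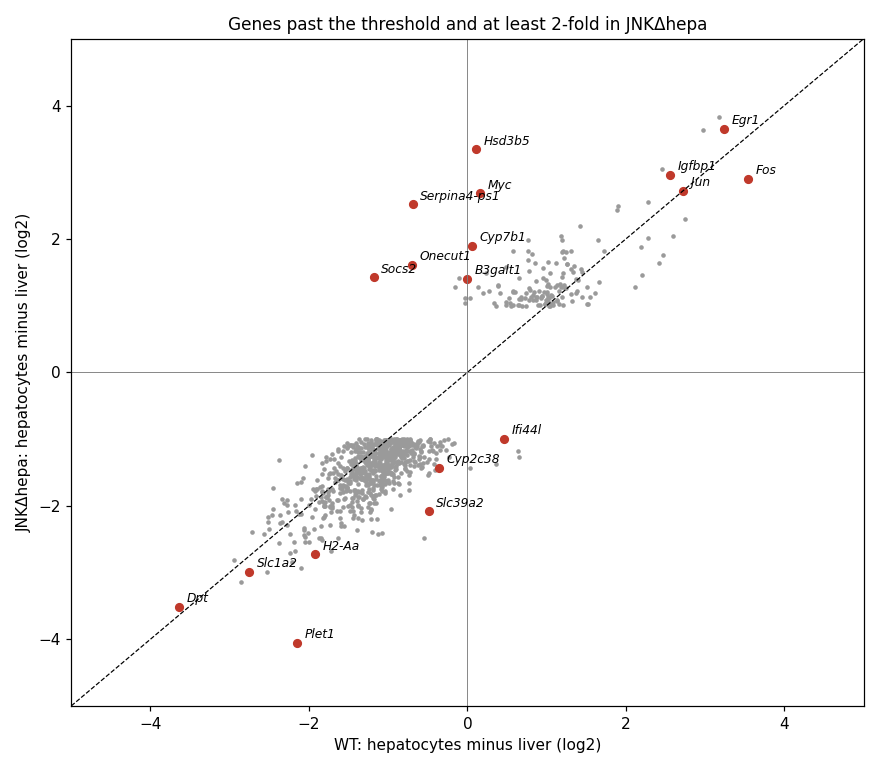
Difference between hepatocytes and liver (log2, 12 arrays normalised together) in WT (horizontal axis) and in JNKΔhepa (vertical axis) for the 920 genes that passed with at least 2-fold in JNKΔhepa (grey), with 18 of them named (red); the dashed line marks equal differences. Jun, Slc1a2 and Dpt lie near the line, and Myc, Hsd3b5, Serpina4-ps1, Onecut1 and Socs2 lie to its left, with differences of 1.42 or more in JNKΔhepa and of 0.16 or less in WT; Socs2 did not pass in JNKΔhepa without replicate 1 or 2 (limma adjusted p = 0.20 and 0.16).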

How the data were processed

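Liver and hepatocyte RNA of 3 JNKΔhepa and 3 WT mice was hybridised to 12 single-colour arrays. The authors made the deposited log2 values with RMA, per the submitters' processing notes; the log2 scale was read from the values, and no source used here names the RMA version, the software or the probe-set build. Array medians of the deposited values were 4.10 to 4.12 in JNKΔhepa liver and 3.22 to 3.24 in hepatocytes, so the tissues appear to have been normalised separately, and levels across them depend on the joint normalisation. Tissue and any hybridisation batch cannot be told apart.

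The 6 JNKΔhepa arrays were quantile-normalised together and fitted with limma 3.58.1 (R 4.3.3), with tissue and mouse as terms (2 residual and 4.41 prior degrees of freedom), tests in both directions and Benjamini-Hochberg adjustment over 18820 genes without a filter on dim probe sets. The genotype comparison used all 12 arrays with 6 mice as blocks. The pairing comes from the mouse number in the labels. Deviations from the tissue means correlated between samples of a mouse at r = 0.103, 0.036 and 0.031, and between samples of different mice at −0.082 to 0.034. No pair of the 6 arrays held the same values, and 3 mice a group limit the precision.

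The table held 35556 probe sets, of which 21218 had 1 gene symbol in the platform annotation, 1881 several and 12457 no named gene. Each gene was represented by its brightest probe set (by mean). The array median of the normalised values (3.67) was taken as the bound below which a reading gives only a limit. The scripts were tested on simulated data. Promoters are from a RefSeq table, searched on both strands.

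The text names Mapk8 and Mapk9 and, in each direction, the 12 genes with the largest differences past the threshold with no overlap between arrays and the same sign in all mice (clones, predicted genes, microRNAs, small nucleolar RNAs and receptor families left out), up to 3 passing members in each direction of each of 40 gene lists (1032 of 1132 entries measured), and 5 genes in each direction of the genotype comparison. Further list members were added after their values were seen. The samples, lists and tests were chosen with earlier results of these data known. Other scalings, fits without the block, a filter on dim probe sets, the dimmer probe set, other variance models, array weights and each mouse left out were tried. Plots used matplotlib 3.10.9 under Python 3.11.15, and tables were handled in pandas 2.3.3.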

Additional observations from a re-analysis of the deposited data

How the results depend on the processing

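The counts over all genes depend on the scaling, and so do the counts of changes of at least 2-fold. On the deposited values 16379 genes passed, 146 higher and 16233 lower, 32 and 3037 of them at least 2-fold, and the median of all genes shifted by −0.61. Centring each array on its median shifted it by 0.27 and gave 11375 genes, 9372 of them higher, with 296 at least 2-fold higher. Centring on the upper quartile shifted it by 0.13 and gave 8194, with 5569 higher. The share of higher genes among those that passed was 47.1% in the main fit, 0.891%, 82.4% and 68% in these 3, and 40.4% with cyclic loess. A filter on dim probe sets, which tests 10641 genes, gave 3223, with 1384 higher. Leaving out 1 mouse, which leaves 2 a group, gave 2973 to 3083 genes, 1180 to 1216 higher and 1757 to 1876 lower. Without the replicate block 5603 genes passed, 2664 higher and 2939 lower. Of the 920 genes changed at least 2-fold, 831 (filter on dim probe sets) or 882 (deposited values) to 920 passed in the same direction under each setting, at any size of change.

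The test between genotypes gave 2 genes on the deposited values, 2 without the replicate block and 2 with an intensity trend and robust variance, and 0 in the other settings. Among the named genes, the replicate block decided the calls of Cyp2b10, Fmo2, Nqo1, Cdh1, Acaa1b, Acot3, Socs2, Tnfrsf10b, Polk, Elovl3 and Slc30a10.

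On the deposited values the direction turned for Krt23 (−0.0757), Map3k13 (−0.0307), Map3k4 (−0.29), Mapk8ip3 (−0.31), Fkbp4 (−0.16), Ahsa1 (−0.15), Ifi35 (−0.30), Cdh1 (−0.27), Tubb2b (−0.37), Ccne1 (−0.21), Mcm5 (−0.23), Bcl2l1 (−0.0692), Hrk (−0.22), Tnfrsf10b (−0.37), Ankrd37 (−0.12), P4ha2 (−0.19), Pdk1 (−0.19), Slc39a10 (−0.0652), Slc30a10 (−0.31), Rps9 (−0.0642), Rpl35a (−0.29), Rpsa (−0.13), Ndufb3 (−0.0459) and Uqcrfs1 (−0.092). With arrays centred on their medians it turned for Lbp (0.0352) and Tdo2 (0.37), with the upper quartile for Tdo2 (0.24), and with the dimmer probe set for Bcl2 (0.45). Beyond the shift of the scale itself, the cause was not tested.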

Other observations

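Small nucleolar and U RNA genes, a group picked out after its values were seen, were higher in hepatocytes for 29 of 61 measured genes and lower for 4, with a median of 0.50, against 13% and 14.6% of all genes. The median stands beside 0.01 over all genes. Snord118 (U8), which guides ribosomal RNA processing, was at 7.35, 8.81 and 8.41 in hepatocytes and at 4.76, 4.39 and 4.51 in liver (log2 difference 3.64, SE 0.31, limma adjusted p = 0.000609). Rnu3a, a gene of U3, was at 5.73, 6.73 and 6.55 against 3.81, 3.53 and 3.92. The tissues overlapped for neither gene, which for Rnu3a the rule for the largest increases required. Both probe sets of Snord118 hold the same values, so they are no independent reading. The labels name 1 extraction kit for both tissues. Rgs16, a regulator of G protein signalling, was among the largest increases, at 9.25, 9.54 and 9.65 in hepatocytes and at 6.62, 8.06 and 6.88 in liver (log2 difference 2.30, SE 0.24, adjusted p = 0.00127), with the liver of mouse 2 above the others.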
